A study of Mus musculus with 6 samples.

Results

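Ion channel and neurotransmitter receptor genes were examined in mouse neural stem cells in which the transcription factor gene Sox4 was targeted by RNA interference. The members are the genes whose symbols mark them as potassium, sodium, calcium or chloride channel subunits, HCN or TRP channels, anoctamins, or receptors for GABA, glutamate, acetylcholine or ATP. Of 12316 gene rows in the authors' deposited table, 104 carry such a symbol, and the 90 with a level of at least 1 in the higher condition were taken as members. The other 14 lay below that level. The symbol pattern also catches 2 antisense RNAs, Kcnmb4os1 and Kcnd3os, which encode no channel. Near the threshold, Gabrg3 (1.08 in the first condition) lies inside it and Kcnn1 (0.987 in its higher condition) and Kcnq3 (0.974) outside it in the authors' deposited table.

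The cells were commercial CD-1 neural stem cells of E14.5 embryos, grown as a monolayer with EGF and bFGF on plates coated with poly-L-ornithine and laminin. All 6 libraries came from cells transduced with a lentivirus and kept under puromycin (0.5 µg/mL): 2 carried a scrambled hairpin, 2 a first and 2 a second hairpin against Sox4. The series' design text calls the libraries of a hairpin biological duplicates from different passages, and says no more on how separate the cultures were. The table compares a first with a second condition, gives 1 level per gene and condition, and does not name the conditions or say whether both hairpins were pooled. A gene is said here to have risen or fallen where the authors flagged it as significant and its level was higher or lower in the second condition. Sox4 itself, at 126.8 and 83.9 in these conditions per the authors' deposited table, was not flagged, with a Cuffdiff q-value of 0.0543. The header gives no unit for the levels. Cuffdiff writes FPKM, reads scaled to transcript length and library size, in columns of these names, and levels are compared between genes on that understanding. No value per library is given, so no standard deviation can be printed and the depth is unknown.

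Voltage-gated channels open and close with the membrane potential, inward rectifier and two-pore-domain potassium channels set the resting potential, and accessory subunits tune the gating and surface delivery of the pores. GABA and glutamate act through ion channels (GABA-A, AMPA, kainate and NMDA receptors) and through G protein-coupled receptors (GABA-B and metabotropic glutamate receptors). Neural progenitors and glia carry many of these proteins before any synapse forms, and GABA and glutamate are known to influence the division of progenitors in the embryonic forebrain.

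Of the 90 members, 16 were called, and 8 of these rose while 8 fell. Over all 11564 genes measured by the same criteria, 5.18% were called, 3.29% as higher and 1.89% as lower. Among the members the shares were 17.8%, 8.89% and 8.89%. The genes that rose included the voltage-gated potassium channel genes Kcnc1, Kcng1 and Kcnh2, the two-pore-domain gene Kcnk1, the calcium channel pore Cacna1h, Cacng5 and the NMDA receptor subunit Grin2b. Those that fell included the GABA receptor genes Gabbr1, Gabbr2 and Gabra4, the potassium channel genes Kcnk2 and Kcnn2, and the accessory subunits Kcnip3 and Cacnb3. An unadjusted p-value under 0.05 was given for 32 members, 16 in each direction, or 35.6%, against 17.8% of all genes. The median log2 ratio (pseudocount 1) was 0.040 for the members and 0.00035 for all genes. No test of the list against other genes was made, so these shares describe this comparison only.

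**Figure D1:**
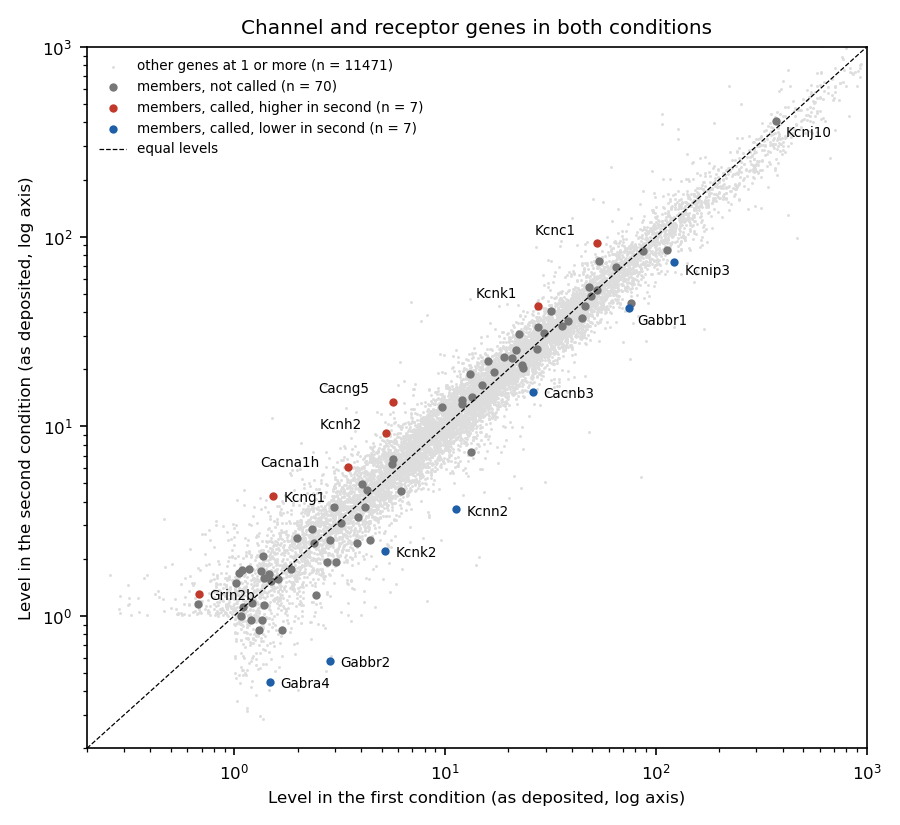
Level of each gene in the first condition (x axis) and the second condition (y axis), as deposited, on log axes, for 84 members and the other genes at 1 or more, of which 54 lie outside the axes. The 7 genes called higher lie above the dashed line of equal levels and the 7 called lower below it, while Kcnj10, the member at the highest level, lies close to it.

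The level filter takes the higher condition, so 10 members passed it through 1 condition alone, and 3 of these were called: Gabbr2, Gabra4 and Grin2b. Among the 80 members at 1 or more in both conditions, 7 were called higher and 6 lower. Below the level, 2 further genes were flagged as higher: Ano4, an anoctamin, at 0.290 and 0.816, and Kcnv1, a modifying potassium channel subunit, at 0.379 and 0.920 in the authors' deposited table. Calls were thus made at both ends of the level range. Of the 38 members at a mean level of 10 or more, 3 rose and 3 fell, and of the 52 under 10, 5 rose and 5 fell. These are 7.89% and 9.62% in each direction, where over all genes at any level 3.29% were called higher and 1.89% lower. Shares over all genes at like levels were not computed.

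Channel and receptor transcripts are long. The members' median transcript length was 4780 nt against 3474 nt over all genes, and 25 of the 90 belonged to the longest 10% of transcripts, a group in which 158 of 1151 genes rose and 11 fell. Of these 25 members, 3 rose, Kcnc1, Cacna1h and Grin2b, and 0 fell. Of the 65 others, 5 rose and 8 fell, or 7.69% and 12.3%, where the shares over all genes outside the longest 10% were 2.14% and 1.99%. All of the 8 members that fell were thus outside that group, from Kcnip3 at 2732 nt to Gabbr2 at 5750 nt. The part that transcript length has in the calls was not tested.

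**Figure D2:**
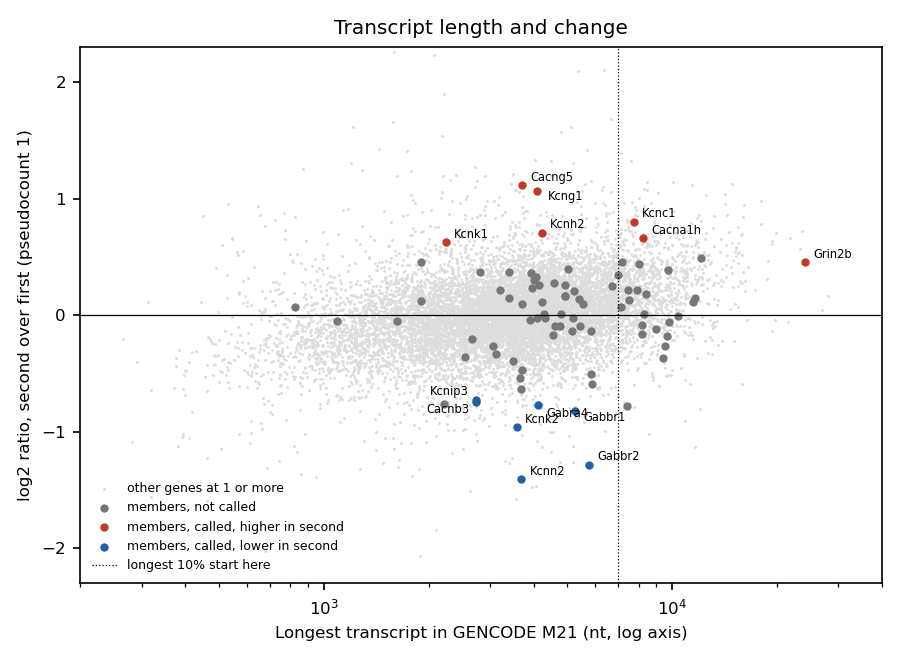
Length of the longest transcript in nt (x axis, log) against the log2 ratio of second over first condition with a pseudocount of 1 (y axis), for 84 members and other genes, of which 107 lie outside the axes. The dotted line marks the longest 10% of transcripts, where 3 members called higher lie and 0 called lower.

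The 6 GABA receptor genes reported here were all lower in the second condition by sign, and 3 of the 6 fell. Over all genes measured, 1.89% were called lower, and 5774 of 11564 were lower by sign. Gabbr2, Gabra4 and Gabrg3 passed the level filter through the first condition alone, which favours that direction. Of the 3 at 1 or more in both conditions, Gabbr1, Gabra2 and Gabrg1, Gabbr1 alone was called. GABA-B receptors are heterodimers of 1 subunit that binds GABA, encoded by Gabbr1, and 1 that couples to the G protein, encoded by Gabbr2. Gabbr1 (chromosome 17, 37045966 to 37075067, plus strand) fell, in the authors' deposited table, from 74.7 to 42.0, 1.78-fold, with a Cuffdiff q = 0.00304. Gabbr2 (chromosome 4, 46662305 to 46991873, minus strand) fell, in the authors' deposited table, from 2.83 to 0.578, 4.90-fold (q = 0.00304). With a pseudocount of 1 its log2 fold of -2.29 became -1.28. The transcript of the ligand-binding subunit was thus the more abundant, by 26.4 times in the first condition and 72.6 times in the second, where the level of Gabbr2 is below 1.

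GABA-A receptors are chloride channels of 5 subunits, usually alpha, beta and gamma. Gabra4, the alpha4 subunit gene (chromosome 5, 71569749 to 71658308), fell, in the authors' deposited table, from 1.47 to 0.449, with a log2 fold of -1.71, or -0.77 with a pseudocount of 1, and q = 0.00304. Gabra2 stood at 3.84 and 2.41 (q = 0.196), and Gabrg3 at 1.08 and 0.997 (q = 0.942), in the authors' deposited table. Gabrg1, the gamma1 subunit gene and the most abundant of the class, stood at 38.3 and 35.9 in the authors' deposited table (q = 0.870). The abundant gamma subunit gene thus had a fold of 1.07 and no call, while an alpha subunit gene fell.

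Several of these genes lie in a genomic cluster on GRCm38. On chromosome 5, Gabrg1, Gabra2, Gabra4 and Gabrb1 follow each other between 70751047 and 72149037. Gabra4 and Gabrb1 are read in opposite directions and exons of the pair overlap by up to 28 bp. Gabrb1, below the level filter, stood at 0.699 and 0.448 in the authors' deposited table (q = 0.594). By position, the log2 fold in the authors' deposited table was -0.09 for Gabrg1, -0.67 for Gabra2, -1.71 for Gabra4 and -0.64 for Gabrb1. Gabra4 alone of the 4 was called, and Gabra4 and Gabrb1 were both below 1 in the second condition.

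Glutamate receptor genes showed 1 call among 14 members, or 7.14%, near the 5.18% called over all genes. Counts of 0 among the 4 AMPA and the 5 kainate receptor genes are likewise near that share. AMPA receptors carry fast excitatory current and are built from the products of Gria1 to Gria4. Gria2, whose subunit limits calcium entry, stood at 52.8 and 52.4 in the authors' deposited table and made up 42.2% and 41.8% of the summed level of the 4 genes. Gria4 stood at 46.2 and 43.3, Gria3 at 21.7 and 25.3 and Gria1 at 4.24 and 4.61 in the authors' deposited table. The AMPA receptor genes had 0 calls in Cuffdiff's test and 0 with an unadjusted p under 0.05, and their levels summed to 124.9 and 125.6.

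NMDA receptors need the product of Grin1 as an obligatory subunit. Grin1 stood at only 1.50 and 1.52 in the authors' deposited table. Grin3a, which encodes a subunit known to lower calcium permeability, stood at 15.0 and 16.6 in the authors' deposited table (q = 0.789). Grin2b, the subunit gene typical of the embryonic brain, rose, in the authors' deposited table, from 0.683 to 1.30, with a log2 fold of 0.93, or 0.45 with a pseudocount of 1, and q = 0.0442. Its transcript of 24060 nt is the longest of the members, and the call was lost at a q threshold of 0.01. The level of Grin1 was 9.97% of that of Grin3a in the first condition and 9.19% in the second.

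Kainate receptors modulate transmitter release and excitability, and 0 of their 5 genes were called. The lower-affinity subunit gene Grik1 stood at 1.68 and 0.847 (q = 0.0794) and Grik2 at 6.17 and 4.56 (q = 0.299) in the authors' deposited table. Grik4, a high-affinity subunit gene, stood at 2.45 and 1.29 in the authors' deposited table (q = 0.0656). These 3 genes had an unadjusted p under 0.05. Grik5, the other high-affinity subunit gene and the most abundant of the class, stood at 32.0 and 40.3 in the authors' deposited table (q = 0.347). The summed level of the kainate receptor genes was 46.5 and then 50.8.

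Of the metabotropic glutamate receptors, Grm3 couples to Gi and is found in astrocytes, and Grm5 couples to Gq. Grm3 stood at 44.8 and 37.1 (q = 0.479) in the authors' deposited table. Grm5 stood at 22.4 and 30.8 in the authors' deposited table, with an unadjusted p of 0.0124 and q = 0.143. Neither was called.

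**Figure D3:**
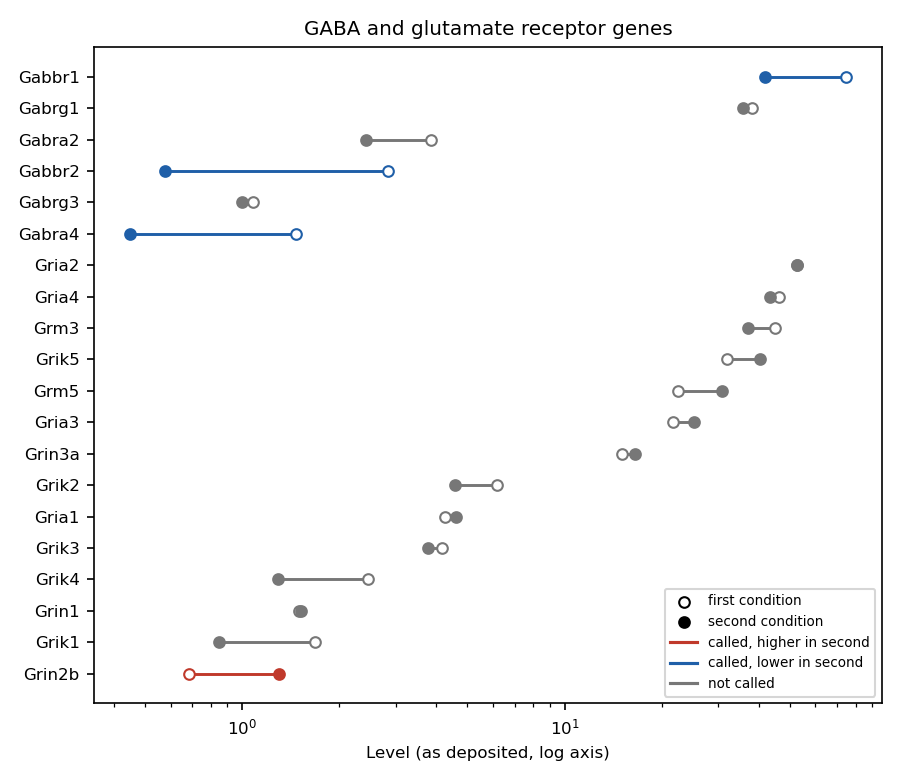
Levels of 6 GABA receptor and 14 glutamate receptor genes in the first (open circle) and second condition (filled circle), as deposited, on a log axis, with GABA receptor genes in the upper block. Every filled circle of the GABA receptor genes lies to the left of its open circle, from Gabbr2 at 2.83 and 0.578 to Gabrg1 at 38.3 and 35.9, while the glutamate receptor genes lie on both sides.

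The Cacng genes measured here encode TARPs, transmembrane proteins that associate with AMPA receptors and modulate them. They are named for their likeness to a calcium channel gamma subunit. Of the 4 measured, 1 rose and 0 fell, where over all genes 3.29% were called higher and 1.89% lower. A count of 0 falls among 4 genes is near that background. Cacng5 (chromosome 11) rose, in the authors' deposited table, from 5.66 to 13.4, 2.38-fold (q = 0.00304). Cacng4, the most abundant, stood at 112.7 and 85.4 in the authors' deposited table (q = 0.446). Cacng7 stood at 76.4 and 44.7 in the authors' deposited table, with an unadjusted p of 0.00835 and q = 0.115. Cacng8 stood at 15.9 and 22.2 in the authors' deposited table, with an unadjusted p of 0.0354 and q = 0.258. The 4 genes summed to 210.7 and then 165.8, so the called rise concerned a less abundant TARP gene.

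Potassium channels made up 30 members besides the antisense RNAs, of which 4 rose and 3 fell. These are 13.3% and 10%, where 3.29% and 1.89% of all genes were called higher and lower. Inward rectifiers dominated by level. Kcnj10, which encodes Kir4.1, the main potassium conductance of astrocytes and oligodendrocyte precursors, stood at 370.4 and 408.6 in the authors' deposited table, above 98.6% of all genes measured. Its partner Kcnj16, which encodes Kir5.1, stood at 64.4 and 68.9 in the authors' deposited table (q = 0.857). Kcnj10 had a q = 0.814 in the authors' deposited table, and the ratio of Kcnj10 to Kcnj16 was 5.75 and then 5.93. Neither gene of the pair was called.

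Among the 15 voltage-gated pore genes, 3 rose and 0 fell, or 20% and 0%, against 3.29% and 1.89% of all genes. A count of 0 falls among 15 genes is near that background. By sign, 9 of the 15 were higher and 6 lower in the second condition. Kcnc1, which encodes Kv3.1, a fast delayed rectifier (chromosome 7), rose, in the authors' deposited table, from 52.5 to 92.4, 1.76-fold (q = 0.00304). Kcnh2, the ERG potassium channel gene (chromosome 5), rose, in the authors' deposited table, from 5.25 to 9.22, with a log2 fold of 0.81 and q = 0.00304. Kcng1, whose product is silent alone and modifies Kv2 channels (chromosome 2), rose, in the authors' deposited table, from 1.53 to 4.28, 2.80-fold (q = 0.00304). Kcnc4, a relative of Kcnc1, stood at 4.42 and 2.50 in the authors' deposited table (q = 0.067), well below the level of Kcnc1.

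Kv4 channels carry a transient current and are joined by KChIP proteins that bind calcium. Kcnd3 stood at 53.9 and 74.4 (q = 0.360), and Kcnd2 at 23.2 and 21.05 (q = 0.786), in the authors' deposited table. Kcnip3, which encodes KChIP3, also known as the transcriptional repressor DREAM (chromosome 2), fell, in the authors' deposited table, from 121.7 to 73.3, 1.66-fold (q = 0.00528). Kcnip1 and Kcnip2, under 2 in both conditions, were not called. The potassium channel accessory gene with the highest mean level thus fell while the pore genes it serves were not called. Other pores at 10 or more include Kcna2, at 20.7 and 23.0 (q = 0.921) in the authors' deposited table. Kcnab2, an accessory subunit of Kv1 channels, stood at 9.69 and 12.7 in the authors' deposited table (q = 0.322). Kcnq5, a gene of the M current, stood at 1.18 and 1.76 in the authors' deposited table, with an unadjusted p of 0.0281 and q = 0.229.

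Of the 4 two-pore-domain genes, 1 rose, 1 fell and 2 were not called, where over all genes 3.29% were called higher and 1.89% lower. Kcnk1, which encodes TWIK-1, rose, in the authors' deposited table, from 27.5 to 43.0, 1.56-fold (q = 0.0248). Kcnk2, which encodes the mechanosensitive TREK-1 (chromosome 1), fell, in the authors' deposited table, from 5.21 to 2.1999, 2.37-fold (q = 0.00304). Kcnk5 stood at 0.673 and 1.16 in the authors' deposited table, with an unadjusted p of 0.0324 and q = 0.246. The more abundant of the called pair was thus the one that rose.

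Calcium-activated potassium channels couple calcium signals to the membrane potential. Kcnn2, which encodes SK2, fell, in the authors' deposited table, from 11.3 to 3.64, 3.11-fold (q = 0.00304). Kcnn3, its relative, stood at 2.39 and 2.42 in the authors' deposited table (q = 0.987). The large-conductance pore gene Kcnma1 stood at 13.2 and 18.9 in the authors' deposited table, with an unadjusted p of 0.0063 and q = 0.098. Its beta4 subunit gene Kcnmb4 stood at 86.8 and 83.8 in the authors' deposited table, so the pore transcript went from 15.2% to 22.5% of the level of the beta4 transcript. Kcnmb4os1, an antisense RNA whose exons overlap those of Kcnmb4 by up to 355 bp, stood at 29.5 and 31.0 in the authors' deposited table. Exons of Kcnmb4 also overlap those of Kcnmb4os2, another antisense RNA, by up to 693 bp. Exons of Kcnma1 overlap those of the noncoding gene 4930519K11Rik by up to 1016 bp. Without use of strand, the reads from these overlaps cannot be assigned to either gene of a pair.

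**Figure D4:**
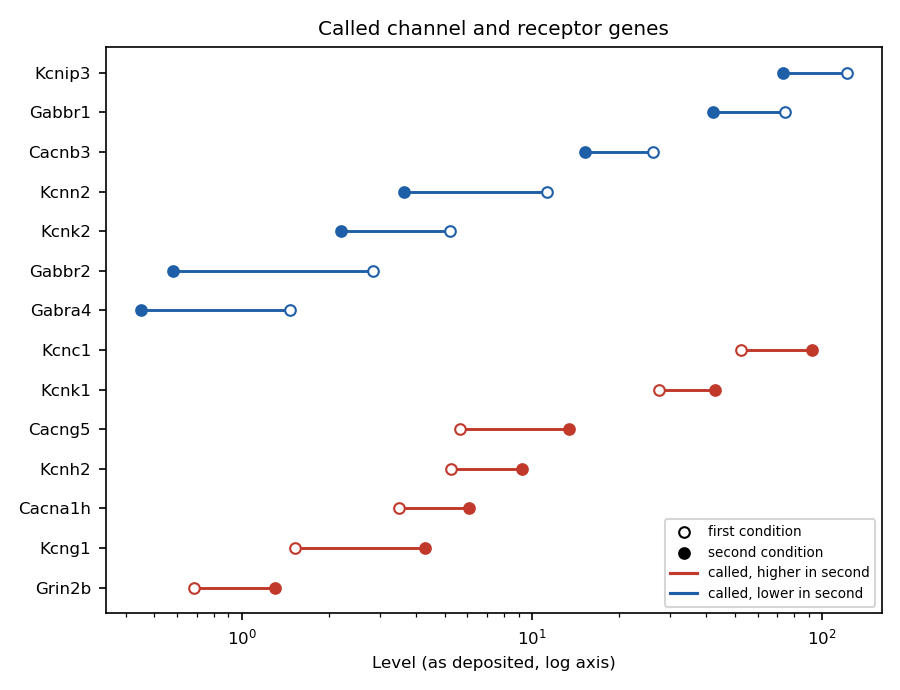
Levels of 14 called members in the first (open circle) and second condition (filled circle), as deposited, on a log axis. The 7 genes called lower are in the upper block, from Kcnip3 at 121.7 and 73.3 to Gabra4 at 1.47 and 0.449, and the 7 called higher in the lower block, from Kcnc1 at 52.5 and 92.4 to Grin2b at 0.683 and 1.30.

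Sodium channel pore genes were scarce. Scn3b, an accessory subunit gene, stood at 2.96 and 3.75 in the authors' deposited table (q = 0.524). The pore genes Scn8a, at 1.39 and 1.59, and Scn3a, at 1.35 and 0.952 in the authors' deposited table, were not called.

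Calcium channel genes gave 1 call among the 4 pores. Among the 9 accessory subunit and TARP genes 2 were called, the TARP gene Cacng5 and Cacnb3. Over all genes 5.18% were called. Cacna1h, which encodes the T-type pore Cav3.2 (chromosome 17), rose, in the authors' deposited table, from 3.47 to 6.06, 1.74-fold (q = 0.00528). Cacnb3, a beta subunit that brings high-voltage-activated pores to the membrane (chromosome 15), fell, in the authors' deposited table, from 26.2 to 15.2, 1.72-fold (q = 0.00708). Cacna1b, the N-type pore gene, stood at 1.06 and 1.69 in the authors' deposited table (q = 0.102). The alpha2delta genes Cacna2d1, at 13.2 and 7.31 (q = 0.0769), and Cacna2d3, at 3.03 and 1.92 (q = 0.162) in the authors' deposited table, had unadjusted p-values under 0.05. Cacnb3 was the most abundant beta subunit gene. Cacnb1 stood at 5.60 and 6.33 and Cacnb2 at 1.09 and 1.75 in the authors' deposited table.

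**Figure D5:**
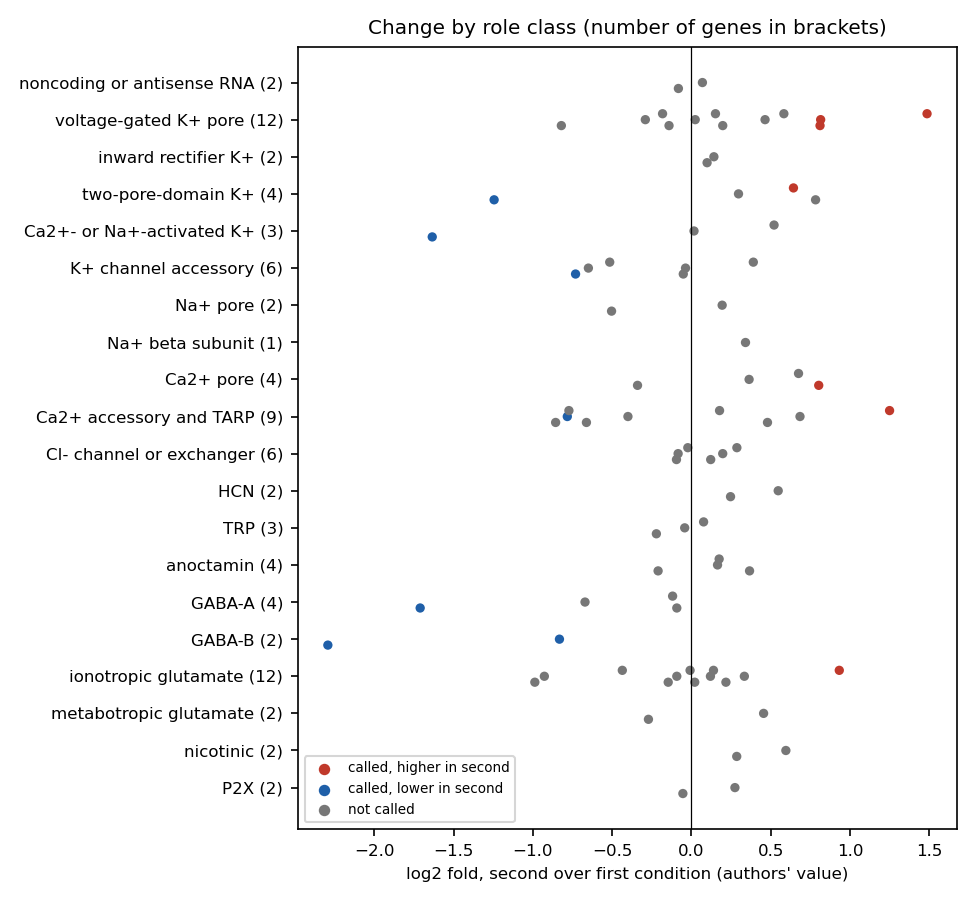
The authors' log2 fold of second over first condition (x axis) for each of 84 members, in rows by role class, with called genes in colour. The calls drawn fell in 9 of 20 classes, with 0 in the chloride channel, HCN, TRP, anoctamin, nicotinic and P2X classes among others, and the GABA-A and GABA-B rows lie wholly below zero.

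The remaining classes held 0 calls by Cuffdiff among 20 genes, of which 1 had an unadjusted p under 0.05. At the share of 5.18% called over all genes, a set of this size would hold about 1 call, so the count of 0 is near the background. Chloride channels and the proton-coupled exchangers of endosomes and lysosomes had folds near 1, with Clcn6 at 49.2 and 48.4, Clcn3 at 35.8 and 33.8 and Clcn4-2 at 27.4 and 25.6 in the authors' deposited table. Clcn7 stood at 12.1 and 13.2 and Clcn5 at 12.1 and 13.8 in the authors' deposited table. Ano6, a lipid scramblase that also conducts ions, stood at 48.2 and 54.0, Ano10 at 23.4 and 20.2 and Ano8 at 17.2 and 19.4 in the authors' deposited table. Trpm7, a channel fused to a kinase, stood at 13.5 and 14.2 in the authors' deposited table. Chrna4, a nicotinic receptor subunit gene, stood at 27.5 and 33.5 in the authors' deposited table, while Chrnb2, with whose product it pairs in the brain, lay below the level filter at 0.716 and 0.796 in that table. P2rx7, an ATP-gated channel gene, stood at 19.1 and 23.1 and Hcn2, a pacemaker channel gene, at 5.66 and 6.71 in the authors' deposited table. The q-values of the genes named in these classes, in the authors' deposited table, ranged from 0.450 for Chrna4 to 0.978 for Clcn6.

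Exons of 6 of the 16 called members overlap those of another gene in GENCODE, so their levels could hold reads of that gene if strand was not used. These are Cacna1h (with Tpsg1), Gabra4 (with Gabrb1), Grin2b, Kcnk1, Kcnk2 and Kcnn2 (each with noncoding genes or, for Kcnn2, also a pseudogene), all on the other strand. Among all 90 members 34 have such an overlap.

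Promoter sequence was compared because Sox4 binds DNA through an HMG box that recognises the core ACAAAG or ACAATG. The core was searched in the 250 bases before each start site, on both strands, and a match counts for only 1 of the 2 spellings. RefSeq promoters on GRCm38.p6 were found for 65 of the 90 members, and for 10 of the 16 called ones. A core was present in 14 of the 65 (21.5%), against 8292 of 32851 promoters in the table (25.2%). By call, 3 of the 6 promoters of genes that fell held one (Cacnb3, Gabbr1 and Kcnk2), and 1 of the 4 of genes that rose (Kcnk1). These matches are letters in a window, not binding sites. Members' promoters held a median of 17 CpG dinucleotides in those bases, against 6 over the table. Their median GC content was 62.8%, against 52.4%. The 32851 promoters are not limited to genes measured here and can include several starts of a gene, while 1 start was taken per member. Neither comparison therefore sets the members apart from other measured genes.

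Shown here are the 120 bases before the start, which hold no annotated exon, of 2 genes that fell and 2 that rose, chosen after their values were seen. They are Gabbr1 (chr17:37045846-37045965, plus strand), Cacnb3 (chr15:98634647-98634766, plus strand), Kcnc1 (chr7:46396348-46396467, plus strand) and Cacng5 (chr11:107915056-107915175, minus strand), each from 5′ to 3′, with a SOX core in capitals.
Gabbr1: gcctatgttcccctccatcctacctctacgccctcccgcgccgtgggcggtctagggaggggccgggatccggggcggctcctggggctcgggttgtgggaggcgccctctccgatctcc
Cacnb3: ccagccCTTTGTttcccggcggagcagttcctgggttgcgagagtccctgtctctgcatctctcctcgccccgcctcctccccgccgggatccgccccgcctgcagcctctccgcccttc
Kcnc1: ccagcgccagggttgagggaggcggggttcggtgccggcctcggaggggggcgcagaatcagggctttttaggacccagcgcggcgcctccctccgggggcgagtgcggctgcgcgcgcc
Cacng5: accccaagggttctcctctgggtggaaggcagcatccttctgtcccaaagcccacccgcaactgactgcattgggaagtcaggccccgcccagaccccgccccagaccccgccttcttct
Cacnb3 has its core, read on the other strand, 114 bases before the start. The core of Gabbr1 begins 245 bases before the start and so lies outside the stretch shown, and Kcnc1 and Cacng5 have none in 250 bases. The stretches differ in CpG content, with 15 CpG in Kcnc1, 11 in Gabbr1, 10 in Cacnb3 and 4 in Cacng5.

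Genes that serve the same signals were counted in further lists. Of 16 measured genes of GABA and glutamate synthesis and uptake, 5 fell and 0 rose, where over all genes 1.89% were called lower and 3.29% higher. Glul, glutamine synthetase, fell from 338.7 to 183.6 and Glud1, glutamate dehydrogenase, from 222.5 to 137.9, both per the authors' deposited table. Abat, the enzyme that breaks down GABA, fell, in the authors' deposited table, from 68.9 to 41.9. The glutamate transporter gene Slc1a2 fell from 77.8 to 34.9 and the glutamine transporter gene Slc38a1 from 40.2 to 23.7, per the authors' deposited table. Slc1a3, a more abundant glutamate transporter gene of this list, had levels of 544 and 565 there and no call (q = 0.948). The fall of Slc1a2 thus does not stand for glutamate transporter transcripts as a whole. The GABA transporter gene Slc6a11, without a call, stood at 302.3 and 308.2 in the authors' deposited table. Gad1, which makes GABA, stood at 1.28 and 1.36 in the authors' deposited table, so a GABA uptake gene was abundant here and a GABA synthesis gene scarce.

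Of 39 other channel genes, 4 rose and 3 fell, where over all genes 3.29% were called higher and 1.89% lower. The calcium release channel genes Itpr1 (1.90 and 3.93) and Itpr2 (5.45 and 9.06) rose in the authors' deposited table. So did the stretch-activated channel gene Piezo1 (2.27 and 4.998) and the polycystin gene Pkd1 (6.37 and 13.2) in the authors' deposited table. All 4 rises came from transcripts of the longest 10%, from 8219 nt for Piezo1 to 14164 nt for Pkd1. Ttyh1, a tweety family gene of neural stem cells, fell from 175.1 to 93.7 and Gjd2, a gap junction gene of neurons, from 2.51 to 0.904, per the authors' deposited table. Gjd2 passed the level filter through the first condition alone, which favours a fall. The 3 falls came from transcripts outside the longest 10%.

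Of 43 receptor auxiliary and scaffold genes, 2 rose and 2 fell, against those shares of 3.29% and 1.89%. Homer2, which links group I metabotropic glutamate receptors to calcium stores, rose from 0.576 to 1.15, per the authors' deposited table. It passed the level filter through the second condition alone, which favours that direction. Shisa9, an auxiliary subunit of AMPA receptors, fell from 3.60 to 1.52 and Ank3, the ankyrin that clusters sodium channels, from 2.05 to 1.20, per the authors' deposited table. Of 17 other G protein-coupled transmitter receptor genes, 1 rose and 0 fell. The serotonin receptor gene Htr2a, the call of this list, rose from 0.761 to 2.85, per the authors' deposited table. Htr2a also passed the level filter through the second condition alone. The median absolute log2 ratio was 0.31 in that list, 0.26 among the members and 0.19 over all genes. These sets differ in level, with medians of the mean level of 3.81, 5.65 and 13.7 in that order. Among the members at a mean level of 10 or more the median absolute log2 ratio was 0.20. The part that level has in these ratios was not tested.

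Many members are also expressed by particular cell types, so marker genes were read beside them. The share of all genes called higher was 3.29% and lower 1.89%. Of 8 measured astrocyte markers, 4 fell and 1 rose, and their levels summed to 1344 and 931.9, or to 243.1 and 135.9 without Aldoc, the most abundant, which was not called. Gfap fell from 29.7 to 5.08, Agt from 22.9 to 4.71 and Aqp4 from 8.27 to 3.52 per the authors' deposited table, as did Slc1a2. Aldh1l1 rose, in the authors' deposited table, from 4.98 to 11.6. Kcnj10, the astrocytic potassium channel gene among the members, was not called. Of 7 neuron markers 1 fell, Elavl4, and they summed to 139.6 and 140.4, or to 17.5 and 13.1 without Map2, while Dcx, Rbfox3 and Stmn2 are not among the genes measured at 1 or more. Of 6 oligodendrocyte precursor markers 2 fell, Gpr17 and Lhfpl3, with sums of 1464 and 1250, or 526.4 and 440.2 without Olig1. Of 8 neural stem cell markers 2 fell, Fabp7 and Hes5, and 1 rose, Nes, with sums of 6125 and 3919, or 1505 and 1633 without Fabp7. Of these 8, 5 had a positive fold, and their median log2 ratio was 0.035. Of the markers of microglia, endothelium and fibroblasts, 0 of 6, 0 of 5 and 0 of 6 are among the genes analysed. In bulk RNA, fewer cells of a type and less RNA per cell cannot be told apart, and the part of cell composition in the calls was not tested.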

How the data were processed

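Per the labels, 6 libraries of poly(A) RNA were made with a SOLiD Total RNA-Seq kit. TopHat2 (2.0.9), Cuffdiff, Cufflinks (2.2.1) and build mm10 are named by the submitters' processing notes. Which annotation and strand setting they used is not given in the sources used here, nor is the depth. The authors' deposited table gives levels of unstated unit, for which Cuffdiff writes FPKM, a log2 fold, a score (the test statistic), p-value, q-value and significance flag. The authors' p-values have a floor of 5e-05, which 9 of the 16 called members share.

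No test was refitted, since no value per library is given. Counts, medians, log2 ratios (pseudocount 1) and recomputed Benjamini-Hochberg values were computed with Python 3.11.15, numpy 2.4.6 and pandas 2.3.3, and the adjustment was tested on simulated data of 11564 genes. The 11564 genes of comparison have 1 symbol, in 1 row, and a level of at least 1. Left out were 82 multi-gene rows, 1 of which, with Trpc2, matches the pattern, and 166 rows whose symbol recurs. Lengths, positions and overlaps came from GENCODE M21 (GRCm38), with the longest coding transcript where there is one, and were found for all 90 members.

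Named are all called members, those with p under 0.05 or a level of 10 or more, the most abundant of each role class, the genes nearest the threshold, and called genes of the other lists. Some results for genes under this rule are not reported here, in text or figures, and counts over all members include them unless stated. Members and lists were chosen with earlier results of these data known.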

Additional observations from a re-analysis of the deposited data

How the results depend on the processing

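The counts of 8 members called higher and 8 called lower became 2 and 4 when an absolute log2 fold of at least 1 was also asked, which can only lower them. Without the longest 10% of transcripts 5 of the 8 rises remained, since Kcnc1, Cacna1h and Grin2b were left out. Under a q-value of 0.01, a level of at least 5, no level filter, a recomputed q and a level of at least 1 in both conditions (the last chosen after the data were seen), rises numbered 6 to 10 and falls 6 to 8. The median log2 ratio lay between 0.012 and 0.12 under its alternatives, inside the interval of -0.05 to 0.14 that order statistics give over genes. A pseudocount cannot change a sign, but a pseudocount of 1 took the log2 fold of 3 called members at low levels down by the largest factors among the called members: Gabbr2 to -1.28, Gabra4 to -0.77 and Grin2b to 0.45. With a recomputed q, 1 of 91 named genes changed side: Sox4, from 0.0543 to 0.0456. No paired analysis was possible because no level of a single passage is given, and leaving out replicates was not run for the same reason. Depth is unknown, so its limit cannot be stated.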
